A study of Mus musculus with 4 samples.

Results

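The genes described here were 10 genes of Notch2 signalling and of B cell positioning in the spleen, which bear on the choice between marginal zone and follicular fate: Notch2, Rbpj, Maml1, Mib1, Dtx1, Hes1, S1pr1, Cxcr5, Ccr7 and Klf2. They were listed by name and not picked by a measured value, but with earlier results of these data known. They stand among 21951 protein-coding genes of the GENCODE basic annotation of the mouse genome. For each gene, every peak was taken that touched a promoter window, which ran from 2000 bp before to 1000 bp after any basic transcript start, or that lay elsewhere in the gene, here called the gene body.

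To ask where the transcription factor MIZ-1 (ZBTB17) sits on the genome of splenic B cells, chromatin bound by it was precipitated from B220+ splenocytes and sequenced (ChIP-seq). There were 4 libraries, namely 1 ChIP and 1 input library from MIZ-1WT mice and the same from MIZ-1DPOZ mice. MIZ-1DPOZ animals carried MB1-cre and Miz-1floxedPOZ, so that Cre made from the B lineage gene Mb1 (Cd79a) removed the POZ domain from MIZ-1 while its zinc fingers remained. All lines had a C57BL/6 background, the mice were 40 to 70 days old, and the antibody was H-190. The sources used here do not say whether animals were pooled or whether the MIZ-1WT mice carried Cre, and a peak list holds no expression values with which to check the cell type or the deletion.

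Notch2 is the receptor whose signal directs immature splenic B cells to become marginal zone B cells. After ligand binding its intracellular part is cut free, enters the nucleus and joins the DNA-binding protein RBPJ and the coactivator MAML1, which switches on targets such as Hes1 and Dtx1. Where a B cell then stays is set by receptors for lipid and protein attractants: S1PR1 holds cells in the marginal zone, CXCR5 draws them into follicles and CCR7 towards the T cell zone, and the transcription factor KLF2 is a regulator of such receptors. B220+ cells hold both subsets together, so more cells of a subset and more MIZ-1 per cell cannot be told apart in these libraries. The study reported that the mix differed: in MIZ-1DPOZ spleens mainly follicular B cells were lost, and marginal zone B cells had a higher frequency.

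Peak calling had left 34209 peaks in MIZ-1WT and 78357 in MIZ-1DPOZ. Each peak carries a fold enrichment, which is the fragment pileup over its highest point (the summit) against the local background, with 1 added to both, and a q-value, given as −log10 q. The pileup was solved back from these scores, with a median of 9 fragments per MIZ-1WT peak and 12 per MIZ-1DPOZ peak. The MIZ-1DPOZ library was 1.34 times as deep by the background of its peaks. At the commonest background, the weakest listed peak had 5 fragments in MIZ-1WT and 6 in MIZ-1DPOZ, so a site with fewer fragments than that is not listed. Since there was 1 ChIP library per genotype, no value has a replicate and no test between genotypes was possible.

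Sequence under the summits is shown first, because CpG-rich DNA is what the promoter sites of these genes shared, as did promoter peaks at large. It was read from the RefSeq copy of GRCm38, the same assembly as mm10, on the strand of the gene, and CpG dinucleotides are in capitals. For Rbpj and Klf2 the stretch runs from 50 bp before the first to 50 bp after the last of the MIZ-1WT and MIZ-1DPOZ summits of an overlapping pair of promoter peaks, and lies in an intron of Rbpj (chr5:53589046-53589244, + strand) and in a coding exon of Klf2 (chr8:72319626-72319889, + strand). The other 3 sequences were added after the values were seen: the overlapping pair in a coding exon of Dtx1 (chr5:120694634-120694752, − strand), and 50 bp to each side of the MIZ-1WT summits before the basic starts of Notch2 (chr3:98013423-98013523, + strand) and Hes1 (chr16:30064364-30064464, + strand), genes where the MIZ-1DPOZ list had no peak at the same place.
Rbpj promoter pair: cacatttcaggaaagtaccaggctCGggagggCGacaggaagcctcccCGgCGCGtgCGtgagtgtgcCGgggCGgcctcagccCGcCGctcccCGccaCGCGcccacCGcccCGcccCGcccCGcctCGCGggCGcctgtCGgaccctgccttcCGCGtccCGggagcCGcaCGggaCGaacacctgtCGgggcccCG
Klf2 promoter pair: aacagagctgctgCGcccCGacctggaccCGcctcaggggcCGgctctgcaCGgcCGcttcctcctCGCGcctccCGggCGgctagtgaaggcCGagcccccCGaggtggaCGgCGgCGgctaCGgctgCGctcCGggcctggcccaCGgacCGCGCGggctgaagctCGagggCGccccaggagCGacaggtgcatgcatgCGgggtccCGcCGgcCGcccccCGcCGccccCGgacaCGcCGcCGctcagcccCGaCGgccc
Dtx1 exon pair: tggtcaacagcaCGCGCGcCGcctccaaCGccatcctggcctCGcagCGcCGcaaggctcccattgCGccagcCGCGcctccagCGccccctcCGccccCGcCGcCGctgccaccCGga
Notch2 MIZ-1WT summit: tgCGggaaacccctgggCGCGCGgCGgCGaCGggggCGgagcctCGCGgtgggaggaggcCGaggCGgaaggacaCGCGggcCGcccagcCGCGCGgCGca
Hes1 MIZ-1WT summit: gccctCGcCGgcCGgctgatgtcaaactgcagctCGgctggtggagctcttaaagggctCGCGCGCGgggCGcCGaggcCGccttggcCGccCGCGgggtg

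These stretches held 29 CpGs in 199 bp at Rbpj, 37 in 264 bp at Klf2, 17 in 119 bp at Dtx1, and, in the shorter stretches, 19 at Notch2 and 14 at Hes1. The GC box, GGGCGG read on either strand with overlapping matches counted, occurred 4 times in the Rbpj stretch, 3 times at Klf2, 2 times at Notch2 and 1 time each at Dtx1 and Hes1. None of the 5 held the RBPJ core TGGGAA, the E-box CACGTG or CCAAT, each searched on both strands. A match is only a string of letters, and a missing match says nothing of the factor.

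MIZ-1WT promoter peaks were listed at 5 of the 10 genes, namely Notch2, Rbpj, Mib1, Hes1 and Klf2. Among all protein-coding genes the share was 30.9%. MIZ-1DPOZ promoter peaks were listed at 6 of the 10 genes, namely Notch2, Rbpj, Maml1, Mib1, Dtx1 and Klf2, beside 48.7% of all genes. Both lists had a promoter peak at 4 genes, and in 3 of them, Rbpj, Mib1 and Klf2, the peaks overlapped by at least 1 bp, where 23.6% of all genes had such a pair. The 3 trafficking receptor genes S1pr1, Cxcr5 and Ccr7 had no promoter peak in either list. With 10 genes, shares of 5 and 6 are not far from the background, and nothing is read from them about the genes as a set.

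**Figure D1:**
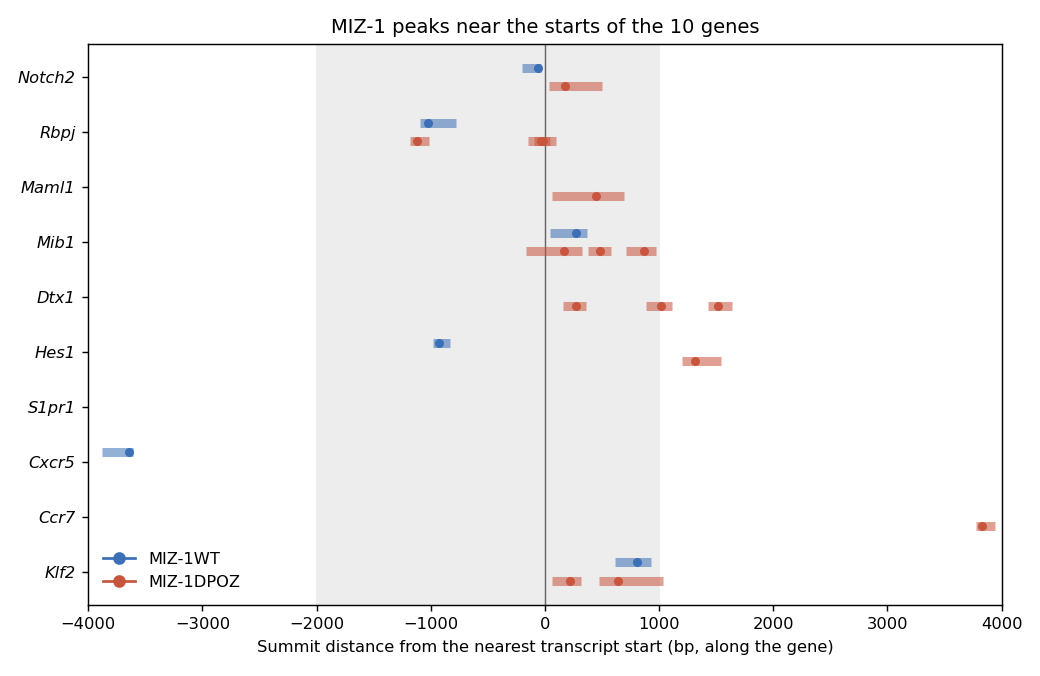
Each bar is a MIZ-1 peak and each dot its summit, by distance in bp from the nearest transcript start along the gene, with MIZ-1WT in blue above MIZ-1DPOZ in red and the promoter window shaded (only peaks near the starts are drawn). Rbpj, Mib1 and Klf2 have overlapping peaks of both lists in the window, Notch2 has neighbouring peaks on either side of its start, and S1pr1 has none.

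At Notch2, the receptor gene (ENSMUSG00000027878, chr3:98013527-98150361), each list had 1 promoter peak, and the 2 peaks did not overlap. The MIZ-1WT peak (chr3:98013340-98013501) had its summit at −65 bp from the start, with 8 fragments, fold 4.84 and −log10 q 3.28. The MIZ-1DPOZ peak (chr3:98013577-98014039) had its summit 174 bp after the start in a coding exon, with 14 fragments, fold 6.39 and −log10 q 7.89. A gap of 75 bp lay between the peaks and 239 bp between the summits, so the peaks flank the start within the same CpG-rich stretch. By rank, 32.3% of MIZ-1WT peaks had a lower −log10 q than the first, and 71.4% of MIZ-1DPOZ peaks a lower one than the second. Deeper in the gene, the MIZ-1WT list had 1 intronic peak of 9 fragments, 25988 bp after the start. The MIZ-1DPOZ list had 5 peaks between 55330 and 128090 bp after the start, with 7 to 10 fragments. None of these lay at the place of the MIZ-1WT peak, and 1 of the 5, with 7 fragments, lay wholly in repeat-masked sequence found at 2 places in the genome.

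Rbpj, which encodes the DNA-binding partner of all Notch receptors (ENSMUSG00000039191, chr5:53466152-53657362), has 5 basic starts and therefore a wide window of 6769 bp. Its MIZ-1WT peak (chr5:53589118-53589431) had 9 fragments, fold 4.67 and −log10 q 3.28, with the summit at −1020 bp from the nearest start. It overlapped by 86 bp a MIZ-1DPOZ peak (chr5:53589031-53589203) of 11 fragments, fold 4.11 and −log10 q 3.61, with its summit 98 bp away. The MIZ-1DPOZ list had another 2 promoter peaks closer to starts, with 12 fragments at −37 bp, in an exon that is not translated, and 10 fragments at −16 bp of the next start. All 4 promoter peaks of the gene ranked in the lower part of their lists, with 13 to 37.3% of peaks below them in −log10 q. The tallest peak of the gene was in the body: a MIZ-1DPOZ peak of 15 fragments and fold 6.81, in an intron 14059 bp after a start, where the MIZ-1WT list had none. The other 3 MIZ-1DPOZ body peaks had 8 to 12 fragments, and of these 1 (8 fragments) had a summit sequence found at 7 places in the genome and 1 (10 fragments) lay before every basic start, inside the gene only by a transcript outside the basic set.

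Maml1, the gene of the coactivator that joins Notch and RBPJ (ENSMUSG00000050567, chr11:50255634-50292311), had a promoter peak in MIZ-1DPOZ alone. It was 630 bp wide (chr11:50291622-50292251), with its summit 447 bp after the start in a coding exon, 13 fragments, fold 5.96 and −log10 q 6.9. The MIZ-1WT list held only an intronic peak of 7 fragments and fold 4.3, 20286 bp after the start. A further 2 MIZ-1DPOZ peaks of 10 fragments each lay over coding exons, 25720 and 34174 bp after the start. These 3 body peaks also lie within the annotated gene Gm26542, so they cannot be given to Maml1 alone.

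Mib1 encodes the E3 ubiquitin ligase that makes Notch ligands active in the cell that sends the signal (ENSMUSG00000024294). All its peaks lay in the promoter window. The MIZ-1WT peak had 9 fragments, fold 4.98 and −log10 q 3.67, with the summit 274 bp after the start. It shared 278 bp with a MIZ-1DPOZ peak of 11 fragments, fold 5.11 and −log10 q 5.05, whose summit lay 104 bp away. Downstream, the MIZ-1DPOZ list had peaks of 10 fragments at 486 bp and of 13 fragments at 870 bp, the last over coding sequence and the tallest of the gene.

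Dtx1, a Notch target whose product is itself an E3 ligase acting on the pathway (ENSMUSG00000029603, chr5:120680202-120711927), had 2 promoter peaks in the MIZ-1DPOZ list and none in the MIZ-1WT list. They had 12 fragments at 274 bp (fold 3.58, −log10 q 3.06) and 15 fragments at 1019 bp (fold 4.56, −log10 q 5.32), the latter with its summit just beyond the window and its edge inside it. Their local backgrounds, 2.63 and 2.51 fragments, were the highest of any promoter peak of the 10 genes, against 1.35 as the commonest value in that library. Another place was shared by both lists inside the gene, in a coding exon about which the sequence is printed above. There, a MIZ-1WT peak (chr5:120694602-120694750) of 9 fragments, fold 4.61 and −log10 q 3.26 lay wholly within a MIZ-1DPOZ peak of 13 fragments, fold 5.26 and −log10 q 5.87. With summits 18 bp apart, these were the closest summits of any pair in the 10 genes. The remaining MIZ-1DPOZ body peaks had 12 fragments at 1517 bp and 8 fragments at 19529 bp.

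Hes1, a repressor that is a direct target of Notch in many tissues (ENSMUSG00000022528, chr16:30064384-30067796), was the only gene of the 10 with a promoter peak in MIZ-1WT alone. The peak (chr16:30064363-30064510) had 10 fragments, fold 4.41 and −log10 q 3.2, with its summit at −926 bp from the only basic start. The MIZ-1DPOZ list had 1 peak at the gene, with 11 fragments, fold 3.58 and −log10 q 2.84, its summit 1316 bp after the start and so outside the window. Both summits lay inside the annotated gene, the MIZ-1WT summit outside every basic transcript. The 2 lists thus marked opposite sides of the basic Hes1 start, but not of the start of the annotated gene.

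**Figure D2:**
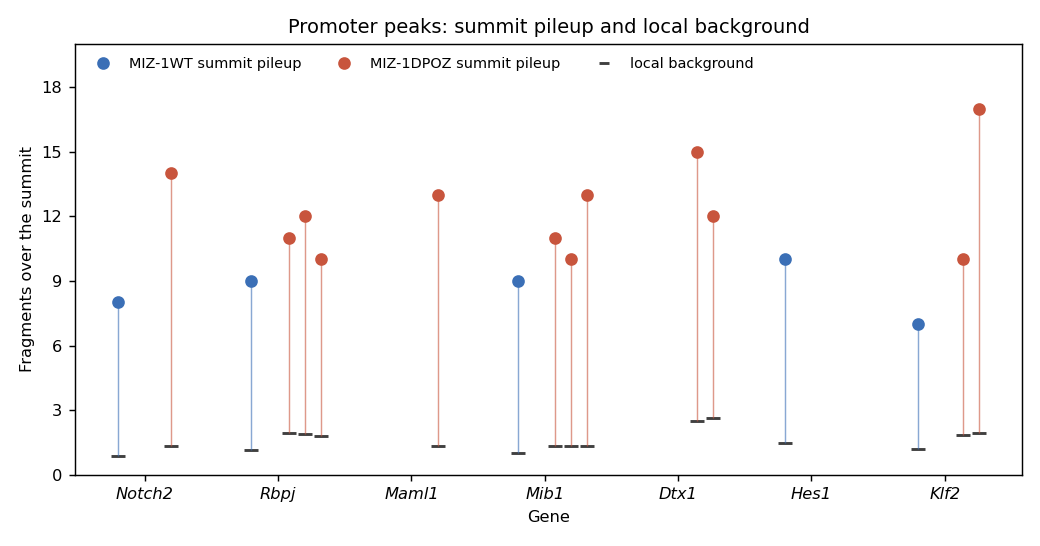
Fragments over the summit (dots) and the local background (dashes) of each promoter peak, by gene, with MIZ-1WT in blue and MIZ-1DPOZ in red; the 2 libraries are not scaled to each other. MIZ-1WT peaks had 7 to 10 fragments and MIZ-1DPOZ peaks 10 to 17, and the MIZ-1DPOZ library was 1.34 times as deep.

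Of the receptors for positioning, S1pr1 (ENSMUSG00000045092, chr3:115710433-115715072) had no peak at all. The nearest MIZ-1WT summit lay 8546 bp after its start, beyond the end of the gene, with fold 5.38, and the nearest MIZ-1DPOZ summit was at −22286 bp. Cxcr5 (ENSMUSG00000047880, chr9:44511787-44561877) had no promoter peak in 3 windows that together span 9003 bp. Its only peak was a MIZ-1WT peak of 10 fragments, fold 5.91 and −log10 q 5.05, in an intron of the longer transcripts and at −3644 bp from the nearest start. The summit of that peak differed from the promoter summits in make-up, with 38.3% GC and 87.6% repeat-masked bases, although its sequence was found once in the genome.

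Ccr7 (ENSMUSG00000037944, chr11:99144196-99155077) had 1 body peak in each list, and they were far apart. The MIZ-1WT peak, over coding sequence 9504 bp after the start, had 9 fragments and fold 4.64. The MIZ-1DPOZ peak, in an intron 3825 bp after the start, had 11 fragments and fold 5.03. No site at S1pr1, Cxcr5 or Ccr7 was therefore held by both lists.

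Klf2, the zinc finger factor of lymphocyte trafficking (ENSMUSG00000055148, chr8:72319033-72321656), had the lowest MIZ-1WT promoter peak and the tallest MIZ-1DPOZ promoter peak of the 10 genes, at the same place. The MIZ-1WT peak (chr8:72319646-72319960) had 7 fragments, fold 3.64 and −log10 q 1.76, with only 1.83% of MIZ-1WT peaks lower in −log10 q. The MIZ-1DPOZ peak (chr8:72319510-72320066) had 17 fragments, fold 6.16 and −log10 q 8.64, and covered all 315 bp of the MIZ-1WT peak. Both summits, 806 and 643 bp after the start, lie in the coding exon whose sequence is printed above. A second MIZ-1DPOZ peak had 10 fragments, fold 3.83 and −log10 q 3.03, in an intron 222 bp after the start.

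At the sites held by both lists, the ratio of summit pileups, MIZ-1DPOZ over MIZ-1WT, was taken after scaling for depth, with an exact binomial 95% interval that covers counting error alone. Each pileup was read at the summit of its own peak, and the summits of a pair lay 18 to 163 bp apart. The ratio was 0.912 at Rbpj (0.343 to 2.49), from 11 and 9 fragments. Mib1 had the same pileups and hence the same ratio of 0.912 (0.343 to 2.49). In the Dtx1 exon it was 1.08 (0.426 to 2.86), and at Klf2 1.81 (0.714 to 5.17). Every interval included 1, and each still allowed differences of more than 2-fold, so no difference was detectable at these sites and this depth. Such ratios exist only where both lists had a peak, so places listed in 1 library alone, as at Hes1 and Maml1, are left out. The median over all 5765 overlapping promoter pairs was 1.07.

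**Figure D3:**
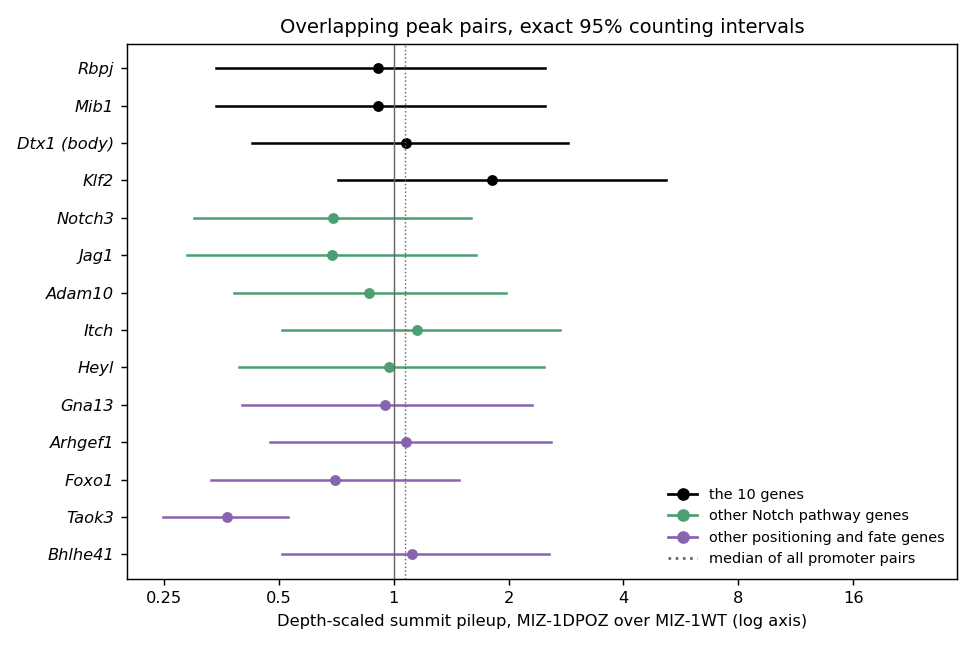
Depth-scaled summit pileup of MIZ-1DPOZ over MIZ-1WT (log axis) with exact 95% counting intervals at overlapping pairs, for the 10 genes (black) and for the named other genes of Notch signalling (green) and of positioning and fate (purple); all are promoter pairs except Dtx1 (body). The intervals of the 10 genes all cross 1, and Taok3 lies below it at 0.365.

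In the gene bodies outside the windows, the MIZ-1WT list had 5 peaks in 5 of the 10 genes (Notch2, Maml1, Dtx1, Cxcr5 and Ccr7), with 24.2% of all genes holding such a peak. The MIZ-1DPOZ list had 16 peaks in 6 genes (Notch2, Rbpj, Maml1, Dtx1, Hes1 and Ccr7), beside 42.7% of all genes. Since the bodies differ in length, these peaks were also counted per 100 kb of whole gene, over 561 kb for the 10 genes. Promoter windows were left in that length, here and for all genes. The density was 0.891 for MIZ-1WT, against 0.965 over all protein-coding genes. For MIZ-1DPOZ it was 2.85 against 2.48. Both were close to the densities of all genes, and the exon of Dtx1 was the only body site of the 10 genes held by both lists.

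What the promoter peaks of these genes had in common was base composition. In the 201 bp around the summit, GC content ran from 70.1 to 81.1% in the 5 MIZ-1WT promoter peaks, with a median of 81.1%, and from 65.2 to 85.1% in the 12 MIZ-1DPOZ promoter peaks, with a median of 75.8%. All promoter peaks of the lists had medians of 73.6% and 70.6%. The summits of the 10 genes held 25 to 34 CpGs in MIZ-1WT and 11 to 39 in MIZ-1DPOZ. Their medians were 29 and 26, where all promoter peaks of the lists had 23 and 20. The sequence of every promoter summit of the 10 genes was found once in the genome. The body peaks were less GC-rich, with medians of 58.7% in MIZ-1WT and 59.7% in MIZ-1DPOZ, and body peaks of all genes had 56.2% and 59.7%.

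Motif counts in the same windows followed the rest of the promoter peaks. A GC box was present in 4 of the 5 MIZ-1WT and 8 of the 12 MIZ-1DPOZ windows, where 65.1% and 56.2% of all promoter peaks of the lists had one. The RBPJ core was in 0 of 5 and 2 of 12 windows (all promoter peaks 8.7% and 10.3%). The latter were at the −37 bp peak of Rbpj itself and the taller Klf2 peak, neither match lying wholly within a stretch printed above. The only E-box was in the MIZ-1WT window of Hes1, outside the stretch printed above (all promoter peaks 4.63% and 3.79%). CCAAT was in none of these windows (9.29% and 9.91%).

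The genes with no promoter peak in either list had the lowest promoter GC content of the 10. For a gene with several starts, this is the GC content of its most GC-rich window, so more starts can only raise it. It was 49.3% for S1pr1, 49.5% for Cxcr5 and 47.8% for Ccr7, all in the second quartile of protein-coding genes. In that quartile, 19.5% of genes had a MIZ-1WT and 38.9% a MIZ-1DPOZ promoter peak. Notch2 (51.1%) and Maml1 (52.1%) were in the third quartile, where these shares were 38.4% and 62.8%. Rbpj (65.7%), Mib1 (55.3%), Dtx1 (56.2%), Hes1 (59.2%) and Klf2 (59.2%) were in the top quartile, with shares of 62% and 82.8%. Within a single list the order was not strict: Notch2 had a MIZ-1WT promoter peak while Maml1 and Dtx1, with higher GC content, had none, and Hes1 had none in MIZ-1DPOZ. The part of base composition in the peak calls was not tested.

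**Figure D4:**
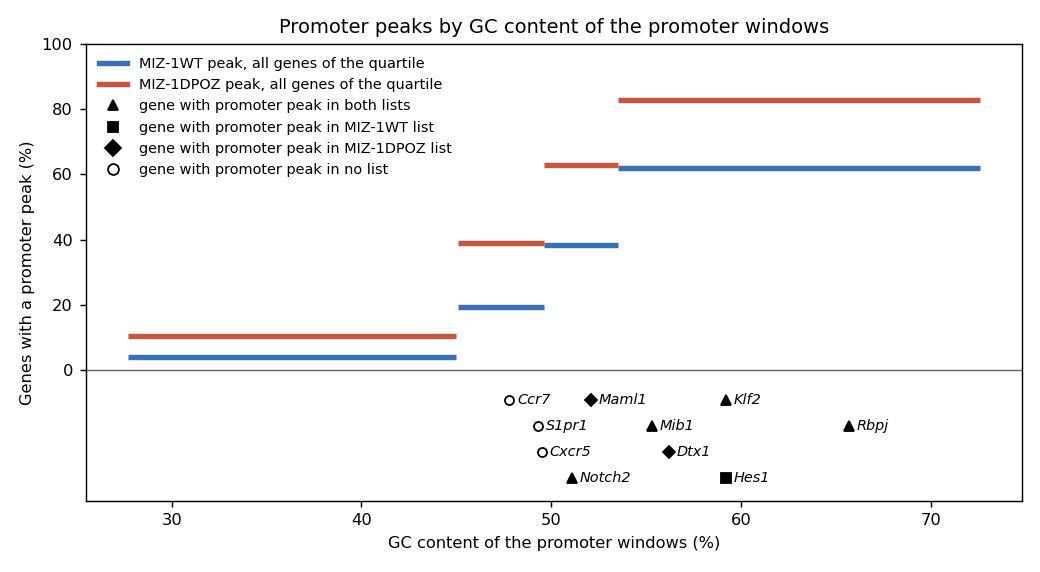
Share of all protein-coding genes with a promoter peak in each quartile of promoter GC content (MIZ-1WT in blue, MIZ-1DPOZ in red). GC content is that of the most GC-rich promoter window of each gene. The 10 genes are placed below by their own GC content, where symbols give the lists that held a promoter peak. The 3 genes with no promoter peak lie in the second quartile, below all the genes that had one.

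Among 48 other genes of the Notch pathway, 30 (62.5%) had a MIZ-1WT promoter peak, 38 (79.2%) a MIZ-1DPOZ promoter peak and 23 (47.9%) overlapping peaks, while 7 had neither. In each case the share was above that of all genes (30.9%, 48.7% and 23.6%). All genes in the top quartile of promoter GC content had similar shares, of 62%, 82.8% and 49%. Promoter GC content was not matched here, and its part in the shares of these 48 genes was not tested. Named by the strength of the weaker peak of the pair were the ligand gene Jag1 (13 and 12 fragments in MIZ-1WT and MIZ-1DPOZ), the protease gene Adam10, whose product cuts Notch2 at the cell surface (13 and 15), the receptor gene Notch3 (14 and 13), the E3 ligase gene Itch (11 and 17) and the target gene Heyl (10 and 13). Their depth-scaled ratios ran from 0.688 (0.287 to 1.64) at Jag1 to 1.15 (0.509 to 2.72) at Itch. Among genes with promoter peaks in 1 list alone, those named by −log10 q were the coactivator gene Maml2 with 12 fragments and the feedback gene Nrarp with 15, both in MIZ-1DPOZ.

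Among 50 other genes of B cell positioning and fate, 19 (38%) had a MIZ-1WT promoter peak, 27 (54%) a MIZ-1DPOZ promoter peak and 16 (32%) overlapping peaks, while 21 had neither. These shares were close to the 30.9%, 48.7% and 23.6% of all genes. Taok3, the gene of a kinase needed for marginal zone B cells to form, stood out in height: its promoter pair had 90 fragments and fold 21.8 in MIZ-1WT, and 44 fragments and fold 11.6 in MIZ-1DPOZ. The depth-scaled ratio of 0.365 (0.248 to 0.529) excluded 1, which compares these 2 libraries and not the genotypes. Next came the forkhead factor gene Foxo1 (17 and 16 fragments), Bhlhe41 (12 and 18), the G protein gene Gna13 (11 and 14) and its partner Arhgef1 (11 and 16). Their ratios ran from 0.702 (0.332 to 1.48) at Foxo1 to 1.12 (0.51 to 2.55) at Bhlhe41. Promoter peaks of genes with peaks in 1 list alone had the highest −log10 q at Gnai2 (21 fragments, MIZ-1DPOZ), the G protein through which chemokine receptors signal, at Ahr (17, MIZ-1WT) and at Myd88 (15, MIZ-1DPOZ).

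**Figure D5:**
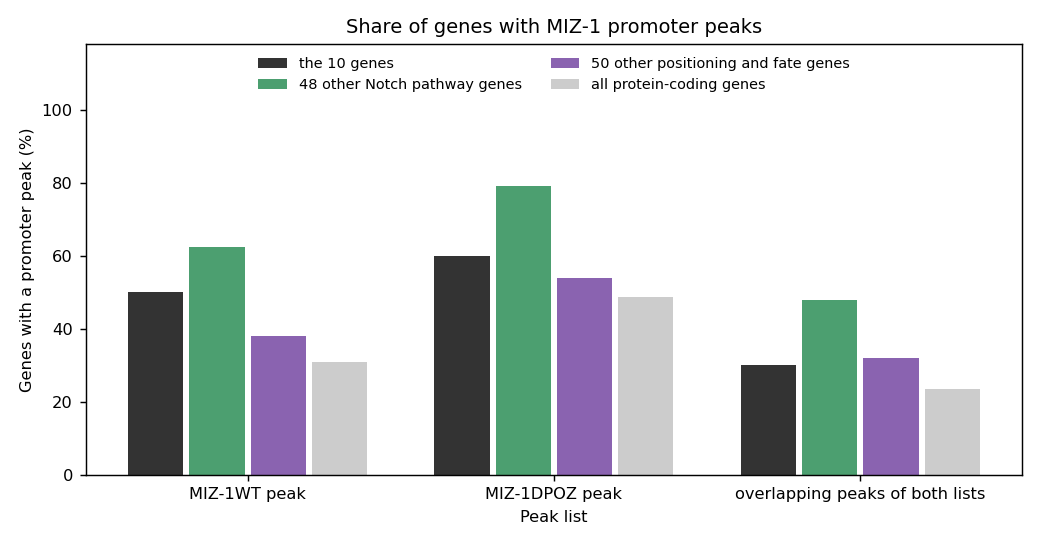
Percentage of genes with MIZ-1WT promoter peaks, with MIZ-1DPOZ promoter peaks and with overlapping peaks of both. Bars are given for the 10 genes, the other Notch pathway genes, the other positioning and fate genes, and all protein-coding genes. They start at 0, and no error is drawn, since every gene of each chosen list was counted. The other Notch pathway genes have the highest bar in each group, from 47.9 to 79.2%, and the 10 genes lie between 30 and 60%.

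The MIZ-1WT promoter calls at the 10 genes rested on peaks in the lower part of that list, with 1.83 to 48.9% of its peaks below them in −log10 q, while the MIZ-1DPOZ promoter peaks ran from 11.8 to 76.1%. Of the 5 MIZ-1WT promoter peaks, 0 reached −log10 q of 5, where 26.9% of all MIZ-1WT promoter peaks did, and 0 reached fold 5. Of the 12 MIZ-1DPOZ promoter peaks, 6 reached −log10 q of 5, near the 58.4% of all MIZ-1DPOZ promoter peaks. When the MIZ-1DPOZ list was cut to its strongest 34209 peaks, Notch2, Maml1, Mib1 and Klf2 kept a promoter peak, beside 25.3% of all genes, and Klf2 alone kept an overlapping pair, beside 13.6%.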

How the data were processed

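MIZ-1 ChIP-seq of B220+ splenocytes from MIZ-1WT and MIZ-1DPOZ mice gave 1 peak list per genotype, called by the authors with MACS2 on mm10 against input and used as deposited. Per peak, the deposited values are the fold enrichment at the summit (a ratio to the local background) and −log10 of the p-value and of the q-value. The submitters' notes name Bowtie2 2.2.6 and MACS2 2.1.0, whereas the study's methods name Trimmomatic, bwa and another MACS2 release. The q cutoff and the handling of duplicates are not given in the sources used here, and the input libraries and reads were not analysed here.

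Peaks were set against GENCODE basic transcripts of GRCm38 with a minimum overlap of 1 bp. Coordinates are 1-based. Whole-number pileups were solved from fold and −log10 p for 99.971% (MIZ-1WT) and 99.985% (MIZ-1DPOZ) of peaks, with a tolerance of 0.0002 in the refitted −log10 p, and the method was tested on simulated data. Depth was taken from the commonest background divided by the smallest peak width. Genomic copies were counted for 5 sequences of 50 bases per summit, and the number of places given for a summit sequence is their median. Intervals are exact (Clopper-Pearson) at 95% and cover counting error only, since fragments without molecular identifiers need not be independent molecules. All 10 genes were named. From the other lists, the 5 genes with the strongest weaker peak of a pair and the 3 with the strongest peak of 1 list alone were named by −log10 q, of which 1 is not reported here. All 48 and 50 genes of those lists matched the annotation. The genes and lists were chosen with earlier results of these data known. Alternatives covered score limits, window, overlap, list size, copies and scaling. Python 3.11.15, pandas 2.3.3, scipy 1.17.1 and matplotlib 3.10.9 were used.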

Additional observations from a re-analysis of the deposited data

How the results depend on the processing

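No paired analysis was possible because no group held more than 1 library and nothing was tested. Under the alternatives, 53 values stayed within 1.5 times the main count or within the error and 19 moved further. At −log10 q of at least 5, 0 of the 10 genes had a MIZ-1WT promoter peak and 0 an overlapping pair, the body peaks were 1 (MIZ-1WT) and 3 (MIZ-1DPOZ), other Notch pathway genes with a promoter peak were 6 and 21, and other positioning and fate genes 5 and 17. At fold of at least 5, the 10 genes had 0 MIZ-1WT promoter peaks and 0 pairs, with 2 and 4 body peaks. Within 500 bp of a start, 2 genes (Notch2 and Mib1) had a MIZ-1WT promoter peak and 1 (Mib1) a pair. With equal numbers of peaks in the lists, 1 gene (Klf2) had a pair, 2 MIZ-1DPOZ body peaks remained, and the MIZ-1DPOZ counts of the other lists were 18 and 16. With summits required to lie within 100 bp, 1 gene (Rbpj) had a pair. With a reciprocal overlap of 50%, the other 2 genes (Mib1 and Klf2) had a pair and Rbpj had none, beside 12.1% of all genes. Beside these, 9.77% (−log10 q), 17.2% (fold), 27.5% (500 bp) and 30.9% (equal numbers) of all genes had a MIZ-1WT promoter peak, and 6.05%, 9.6%, 21.3% and 13.6% a pair, with 14.2% for close summits. A MIZ-1DPOZ promoter peak was held by 33.3% of all genes at that −log10 q and by 25.3% with equal numbers. By construction, each of these alternatives admits fewer peaks, pairs or base pairs. Using only basic transcripts to bound the genes, chosen after seeing the data, left 15 MIZ-1DPOZ body peaks.

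The depth-scaled ratio at Rbpj ran from 0.725 to 1.22 and at Klf2 from 1.52 to 2.43 over the scalings tried, with 1 inside each interval. With pileups of 7 to 17 fragments at the promoters, sites of both lists could not be ranked, and weaker sites are not listed.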

Other observations

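Outside the promoter windows, 21 of the 48 other Notch pathway genes (43.8%) held a MIZ-1WT peak in the gene and 30 (62.5%) a MIZ-1DPOZ peak. Of the 50 other positioning and fate genes, 15 (30%) held a MIZ-1WT body peak and 24 (48%) a MIZ-1DPOZ body peak. Among all protein-coding genes the shares were 24.2% and 42.7%, near those of the positioning and fate genes. Gene lengths were not matched between the lists.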
